A study of Mus musculus with 7 samples.

Results

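Interferon-stimulated genes are genes whose transcription rises when a cell senses interferon. A list of 35 of them was followed in mouse left lungs with and without a Gata5 deletion. A member was read from a probe set, the group of short probes that reports 1 transcript on the array, whose single annotated gene was that member, and where a gene had several, the brightest on average across the 7 arrays was used. By this rule 33 of the 35 members were measured, among 18193 genes in all. Isg15, a ubiquitin-like protein, and Ifi44 had no probe set annotated to them alone and were not analysed here.

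Total RNA from whole left lungs was labelled and hybridised to Affymetrix Mouse Genome 430 2.0 arrays, 1 array per mouse. There were 3 mice labelled Gata5 knockout (KO) and 4 labelled wild type (WT), all 8 weeks old, with no treatment. The labels call the mice of each group biological replicates, so p-values for single genes set the difference between the groups against the spread between mice. The sources used here do not give the strain, the deleted part of Gata5 or whether the deletion was limited to a cell type. Levels are on the log2 scale, as deposited and levels of different probe sets cannot be set against each other.

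Type I interferons bind the receptor Ifnar1 and Ifnar2, whose kinases Jak1 and Tyk2 phosphorylate Stat2. Stat2 and Irf9 are parts of the complex ISGF3, which binds the interferon-stimulated response element (ISRE) in promoters of antiviral genes, whereas interferon-gamma acts through another element, GAS. In the lung this programme limits respiratory viruses, and a low level of it is present without infection.

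Promoter letters show what many of these genes share beyond their names. Of the 35 members, 27 had a promoter in a RefSeq table of the assembly GRCm38.p6, which gives 250 bases before to 50 after each gene's start. The ISRE core, TTTC followed by any 2 bases and TTTC again, on either strand, was present in 16 of the 27 (59.3%), against 3.99% of 27025 genes and 3.44% of all windows of this length. The GAS letters TTCNNNGAA, which read the same on both strands, were present in 7 of the 27 (25.9%), against 9.55% of all genes and 8.30% of all windows. A match is a description of the letters, and the 2 elements can overlap, as they do in Bst2. Below are 60 bases, read 5′ to 3′ on the gene's strand, for the members that passed the test of KO against WT and hold an ISRE match (Bst2 and Stat2), and for 4 members that hold one and did not pass (Ifit1, Rsad2, Igtp and Irgm1). Capitals mark the ISRE matches. The windows are chr8:71537565-71537624 (minus strand) for Bst2, chr10:128270251-128270310 (plus) for Stat2, chr19:34640769-34640828 (plus) for Ifit1, chr12:26456538-26456597 (minus) for Rsad2, chr11:58199496-58199555 (plus) for Igtp and chr11:48871421-48871480 (minus) for Irgm1.
Bst2: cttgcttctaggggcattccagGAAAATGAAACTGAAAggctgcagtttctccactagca
Stat2: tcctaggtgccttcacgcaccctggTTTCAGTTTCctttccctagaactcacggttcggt
Ifit1: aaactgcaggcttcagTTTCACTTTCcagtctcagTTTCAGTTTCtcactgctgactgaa
Rsad2: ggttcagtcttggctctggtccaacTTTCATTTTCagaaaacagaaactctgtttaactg
Igtp: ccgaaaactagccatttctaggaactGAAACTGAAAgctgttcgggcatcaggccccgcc
Irgm1: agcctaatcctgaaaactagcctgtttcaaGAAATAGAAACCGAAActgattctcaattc
Bst2 holds 2 overlapping matches that begin 130 and 124 bases before the start, Irgm1 likewise at 30 and 24, and Ifit1 holds 2 separate ones at 104 and 85. Stat2, Rsad2 and Igtp hold 1 each, at 222, 120 and 34 bases. Irf9, the third member that passed, has no ISRE match in its windows.

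Several properties of the arrays bear on every value. Array medians were 6.12 to 6.15 for KO and 6.10 to 6.11 for WT, which do not overlap (exact two-sided permutation p = 0.0286). Gata5 itself, which is dim in these lungs, was at 4.71 to 5.15 in KO and 5.32 to 5.85 in WT, 1.51-fold lower (limma adjusted p = 0.0326 in the fit without a level filter). A probe set outside the deleted part would check nothing, and that part is not known here. Control probe sets at both ends of a transcript, which read how complete the labelled RNA is, had a wider difference on KO arrays: beta-actin 3′ minus 5′ was 4.74 to 5.39 there and 3.88 to 4.31 on WT arrays, and Gapdh 3′ minus middle 3.85 to 4.31 against 3.33 to 3.68 (exact two-sided permutation p = 0.0286 each, the smallest that 35 splits allow). WT replicate 4 had Xist at 12.72, against 6.31 to 6.48 on the other arrays, and Eif2s3y, a Y-linked gene, at 3.71, where the others ran from 9.30 to 9.68. These genes read WT replicate 4 as female and the others as male, and the labels do not give the sex. Markers of lung epithelium were bright, with the club cell secretoglobin Scgb1a1 at 14.45 to 14.61.

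The comparison of KO with WT asked which of these genes change in the lung when Gata5 is deleted. Of 32 members tested, 3 fell in KO lungs, 0 rose and 29 did not pass. The 3 were Irf9 and Stat2, both parts of ISGF3, and Bst2, the antiviral surface protein tetherin, each lower by 1.28-fold to 1.46-fold. With the same rule (limma adjusted p under 0.05) 15.6% of all 13285 tested genes were called, 10.0% lower and 5.56% higher, so the 3 of 32 that fell (9.38%) are close to the share of all genes that fell. Without adjustment, 9 of the 32 had limma p under 0.05, against 34.8% of all tested genes. The median log2 change of the members was 0.05, within a range from -0.54 to 0.30, beside a median of -0.003 over all tested genes. For 25 of the 32 the change was within 0.25 of 0, and 19 changes were positive and 13 negative. The groups did not overlap for 7 members, against 29.6% of all tested genes. In whole lung, fewer cells of a type and less RNA per cell cannot be told apart.

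**Figure D1:**
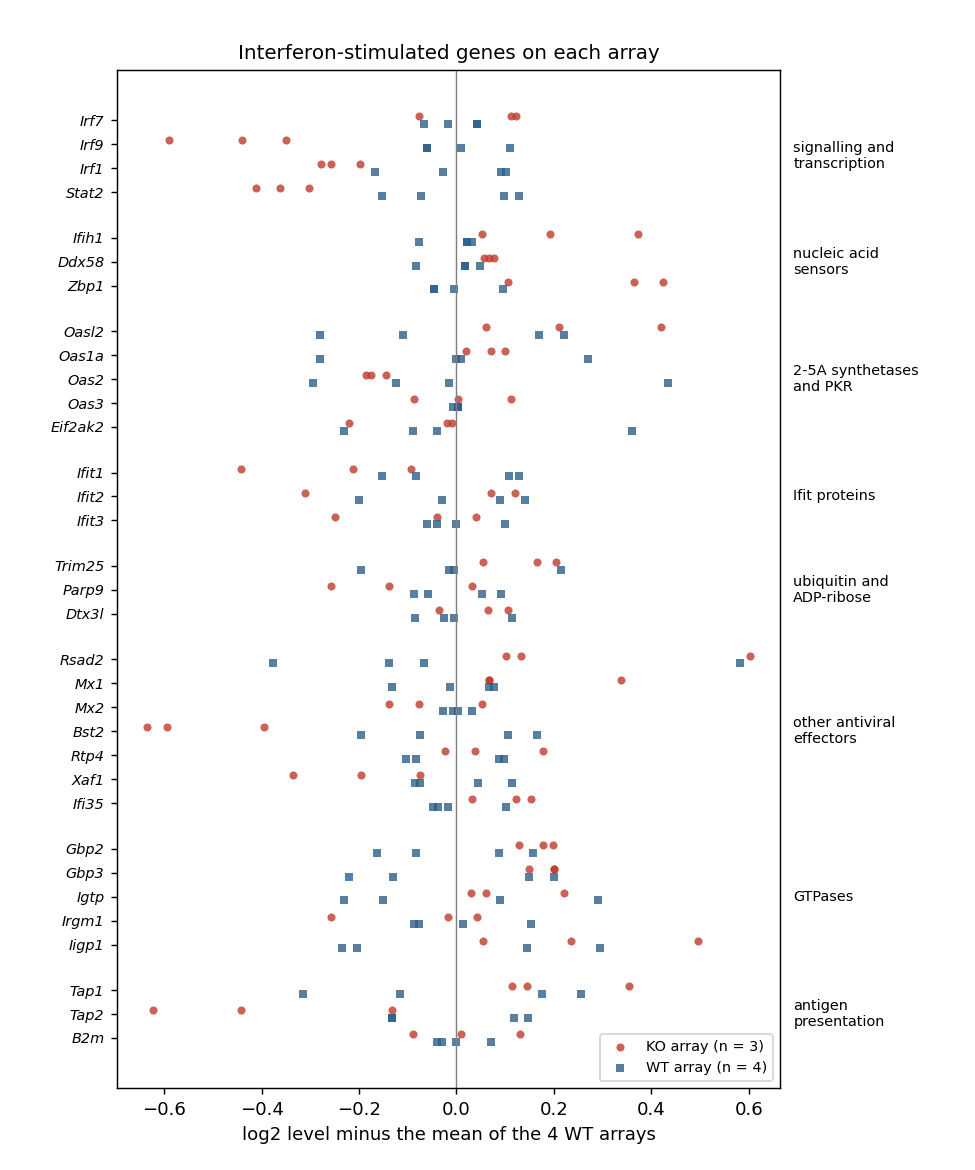
Each of the 33 measured genes, grouped by role, on each array, as the log2 level minus the mean of the 4 WT arrays (x axis). Circles are the 3 KO arrays and squares the 4 WT arrays. The circles of Irf9, Irf1, Stat2 and Bst2 lie left of all squares, those of Ifih1, Ddx58 and Zbp1 lie right of all squares, and for the other 26 genes the groups overlap.

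Signalling and transcription factors held 2 of the 3 changed members. Irf9 binds DNA for ISGF3. At probe set 1421322_a_at its log2 level was 8.12, 8.21 and 7.97 on KO replicates 1 to 3 and 8.67, 8.50, 8.50 and 8.57 on WT replicates 1 to 4. Every KO array lay below every WT array, with 0.29 between the nearest ones. The log2 change was -0.46 (SE 0.077, 95% interval -0.64 to -0.28), from 8.56 ± 0.08 (SD, n = 4) to 8.10 ± 0.12 (SD, n = 3), and Irf9 was 1.38-fold lower (limma adjusted p = 0.00969). Stat2, the subunit that activates transcription in the same complex, was dim, close to the level filter of 5.47. At 1421911_at it was at 5.55, 5.66 and 5.60 in KO and 6.09, 5.81, 5.89 and 6.06 in WT. Here too the groups did not overlap. The log2 change was -0.36 (SE 0.082, 95% interval -0.55 to -0.17), a 1.28-fold lower level (limma adjusted p = 0.0249).

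The other factors did not pass. Irf1, a factor induced by interferon-gamma, was at 10.22, 10.14 and 10.16 in KO and 10.39, 10.25, 10.52 and 10.51 in WT. Its KO arrays were all below its WT arrays, but the nearest values were 0.03 apart. The log2 change was -0.24 (limma adjusted p = 0.0663), and it passed when WT replicate 2 was left out (limma adjusted p = 0.0343). Irf7, which amplifies the type I interferon response, had a log2 change of 0.05 (limma adjusted p = 0.61), with KO arrays between 6.61 and 6.81 and WT arrays between 6.62 and 6.73. So the factors differed among themselves: 3 of 4 had KO below WT on every array, where 17.5% of all tested genes did, and Irf7 was not among them.

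Bst2, which holds budding virus particles at the cell surface, had the largest decrease among members at the brightest probe sets. At 1424921_at it was at 7.77, 7.53 and 7.57 in KO and 8.33, 7.97, 8.09 and 8.27 in WT. The nearest KO and WT arrays were 0.20 apart. The log2 change was -0.54 (SE 0.10, 95% interval -0.78 to -0.31), from 8.17 ± 0.17 (SD, n = 4) to 7.62 ± 0.13 (SD, n = 3), or 1.46-fold lower (limma adjusted p = 0.0137).

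Irf9 and Bst2 passed with limma whichever single array was left out, with adjusted p of at most 0.0326 and 0.047. Stat2 lost its call without KO replicate 1, KO replicate 3, WT replicate 1 or WT replicate 4, with limma adjusted p of 0.0652, 0.0663, 0.0609 and 0.0676. Without WT replicate 4, which stood apart in Xist and Eif2s3y, 2 members were thus called, Irf9 and Bst2. All 3 calls were lost when a control difference entered the fit as a covariate, when limma called 0, 0 and 5 of all 13285 genes. For beta-actin 3′ minus 5′ the log2 changes were -0.65 for Irf9, -0.50 for Stat2 and -0.51 for Bst2 (limma adjusted p = 0.218, 0.232 and 0.30). For beta-actin 3′ minus middle they were -0.32, -0.34 and -0.43 (limma adjusted p = 0.415, 0.439 and 0.426). Each change stayed negative. For Gapdh they were -0.53, -0.40 and -0.40 (limma adjusted p = 0.141, 0.218 and 0.278). The control differences do not overlap between the groups, so genotype and labelled-RNA completeness cannot be told apart here.

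**Figure D2:**
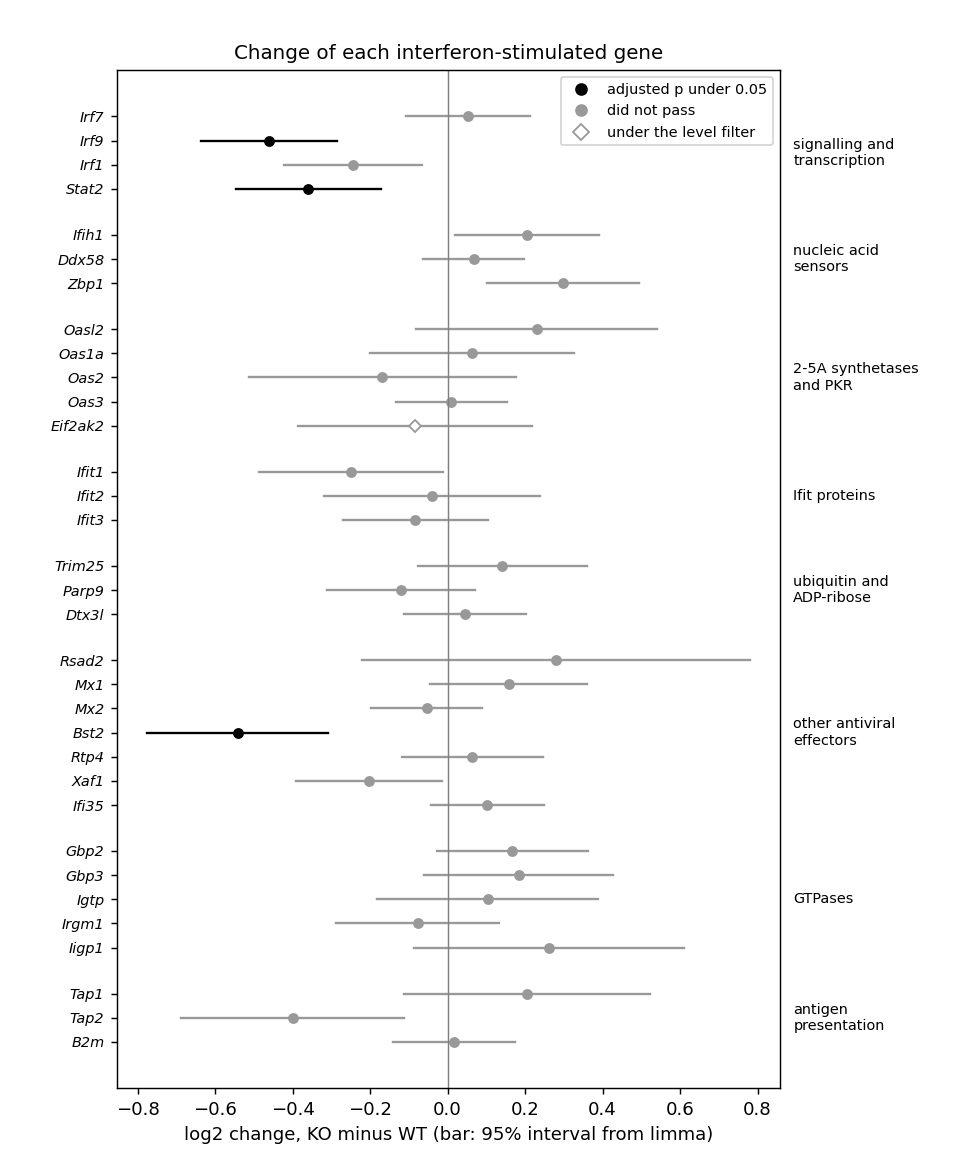
Log2 change, KO minus WT, of each measured gene (x axis), with its 95% interval from limma, by role. Black marks adjusted p under 0.05, grey marks genes that did not pass and the open diamond is Eif2ak2, which lies under the level filter. Irf9, Stat2 and Bst2 are the black points, at -0.46, -0.36 and -0.54.

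The nucleic acid sensors sat on the other side of 0, and none passed. Ifih1, the sensor MDA5 of long double-stranded RNA, was at 10.07, 10.25 and 9.93 in KO and 9.90, 9.90, 9.80 and 9.91 in WT. Its log2 change was 0.21 (limma adjusted p = 0.116), and it passed after a further quantile normalization or cyclic loess (log2 change 0.30 and 0.27). Zbp1, which senses Z-form nucleic acid and can start necroptosis, was at 6.03, 6.09 and 5.77 in KO and 5.66, 5.62, 5.62 and 5.76 in WT. KO replicate 3 was only just above the highest WT array. The log2 change of Zbp1 was 0.30 (SE 0.086, limma adjusted p = 0.0501), and it passed without KO replicate 3 (limma adjusted p = 0.0255). Ddx58, the sensor RIG-I of viral RNA ends, was at 9.15 to 9.17 in KO and 9.01 to 9.14 in WT, a log2 change of 0.07 (limma adjusted p = 0.414). For all 3 sensors every KO array was above every WT array, which was so for 12.1% of all tested genes. For Ddx58 the nearest arrays were 0.01 apart, its other probe sets were at -0.13 and -0.06, and the mean of its probe sets was at -0.04. Ifih1, Zbp1 and Ddx58 kept a positive change at the brightest probe set under each of the 3 other scalings between arrays.

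The 2-5A synthetases make the activator of the antiviral nuclease RNase L, and none of the 4 tested passed. Oas2 was at 7.94, 7.95 and 7.98 in KO and 8.56, 8.11, 7.83 and 8.00 in WT. The KO arrays spanned 0.04 and the WT arrays 0.73, with WT replicate 1 the highest, and the log2 change was -0.17 (limma adjusted p = 0.443). Oas1a was at 8.26, 8.18 and 8.23 in KO and 8.43, 8.17, 7.88 and 8.16 in WT, a log2 change of 0.06 (limma adjusted p = 0.714). The KO arrays of Oas1a spanned 0.08 and its WT arrays 0.55. Oasl2, a 2-5A synthetase-like protein, had a log2 change of 0.23 (limma adjusted p = 0.255), and Oas3 one of 0.01 (limma adjusted p = 0.929), whose sign turned under median centring and cyclic loess. Eif2ak2, the kinase PKR that halts translation on double-stranded RNA, lay under the level filter at 4.28 to 4.49 in KO and 4.27 to 4.86 in WT. Its log2 change in the fit without a filter was -0.08 (limma adjusted p = 0.68). Oas2 and Oas3 are adjacent among protein-coding genes in the RefSeq order and related in sequence. Whether their probe sets share signal was not tested, and the WT arrays spanned 0.73 for Oas2 and 0.01 for Oas3.

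The Ifit proteins bind foreign RNA ends, and their genes lie near each other, with no protein-coding gene between Ifit2 and Ifit3. None of the 3 passed. Ifit1 was at 9.21, 9.33 and 8.98 in KO and 9.53, 9.34, 9.27 and 9.55 in WT, so that KO replicate 2 lay within the WT range. Its log2 change was -0.25 (95% interval -0.49 to -0.01, limma adjusted p = 0.132). Ifit3 had a log2 change of -0.08 and Ifit2 one of -0.04 (limma adjusted p = 0.483 and 0.835), and both were positive after a further quantile normalization (0.0042 and 0.04). Over 19 alternative fits the sign of Ifit2 turned in 7, with changes from -0.34 to 0.45. The sign of Ifit3 turned in 1, with changes from -0.22 to 0.0042.

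Of the ubiquitin and ADP-ribose enzymes, Trim25, the ligase that activates RIG-I, had a log2 change of 0.14 (limma adjusted p = 0.313). Parp9 and its partner Dtx3l, an ADP-ribosyltransferase and a ubiquitin ligase that act as a complex and are adjacent genes, had log2 changes of -0.12 and 0.05 (limma adjusted p = 0.324 and 0.659). The groups overlapped for all 3.

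Among the other antiviral effectors, Rsad2, or viperin, which makes a chain-terminating nucleotide, varied most among WT mice of all tested members. It was at 9.47, 9.97 and 9.50 in KO and 9.30, 9.95, 9.23 and 8.99 in WT, where WT replicate 2 was close to the highest KO array. The WT arrays spanned 0.96 and the log2 change was 0.28, with an SE of 0.22 and a 95% interval of -0.22 to 0.78 (limma adjusted p = 0.382). The upper bound of that interval is larger in size than the change of Bst2. Mx1 and Mx2, related GTPases that block viral replication, were at 5.81 to 6.08 and 6.08 to 6.27 in KO, and at 5.61 to 5.82 and 6.19 to 6.25 in WT, with log2 changes of 0.16 and -0.05. Both are near the level filter. Xaf1, a promoter of apoptosis, had a log2 change of -0.20 (limma adjusted p = 0.125), Ifi35 one of 0.10 (limma adjusted p = 0.277) and Rtp4, a chaperone of membrane receptors, one of 0.06 (limma adjusted p = 0.584). None of these 6 passed.

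The interferon-inducible GTPases attack vacuoles that hold intracellular pathogens and are strongly induced by interferon-gamma. None of the 5 passed. Iigp1 was at 10.02, 9.76 and 9.58 in KO and 9.82, 9.32, 9.29 and 9.67 in WT (log2 change 0.26, limma adjusted p = 0.249). Gbp3 was at 10.34, 10.39 and 10.39 in KO and 10.39, 10.06, 9.97 and 10.34 in WT (log2 change 0.18, limma adjusted p = 0.248). In both genes WT replicates 1 and 4 lay within the KO range, and WT replicates 2 and 3 lay below it. Gbp2, a guanylate-binding protein, had a log2 change of 0.17, Igtp one of 0.10 and Irgm1, a regulator of the other immunity-related GTPases, one of -0.08 (limma adjusted p = 0.194, 0.571 and 0.567). The sign of Irgm1 turned after a further quantile normalization. All 5 GTPases were above their 7-array means on WT replicates 1 and 4, and all 5 below them on WT replicates 2 and 3.

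For antigen presentation, Tap1 and Tap2, the chains of the transporter that feeds peptides to MHC class I, had opposite signs and neither passed. Tap2 was at 7.53, 7.04 and 7.22 in KO and 7.78, 7.53, 7.53 and 7.81 in WT, so that KO replicate 1 met the lowest WT arrays. Its log2 change was -0.40 (SE 0.13, limma adjusted p = 0.0641), and it passed without KO replicate 1 (log2 change -0.53, limma adjusted p = 0.0282) or with each array centred on its median (-0.43). Tap1 was at 8.65 to 8.89 in KO and 8.22 to 8.79 in WT, a log2 change of 0.205 (limma adjusted p = 0.313). B2m, the light chain of MHC class I, was at 13.12 to 13.34 in KO and 13.17 to 13.28 in WT, a log2 change of 0.02 with a 95% interval of -0.14 to 0.17 (limma adjusted p = 0.878). The sign of B2m turned with each array centred on its median.

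Other probe sets of the same genes did not always move with the brightest one. Of the 33 measured members, 19 had 1 probe set and 14 had several, with 21 further probe sets, of which 11 lay under the level filter. In a limma fit over all 45037 probe sets, 9.89% passed, and 7 of the 54 member probe sets did, all lower in KO. Of these, 4 were further probe sets. Ifi35 at 1424617_at was at 7.57, 7.10 and 7.37 in KO and 8.12, 7.93, 7.78 and 8.03 in WT, a log2 change of -0.62 (limma adjusted p = 0.0184). A second Ifi35 probe set, 1459151_x_at, was at 8.68 to 8.84 in KO and 9.03 to 9.13 in WT, a log2 change of -0.31 (limma adjusted p = 0.0202). Both stand against 0.10 at the brightest Ifi35 probe set, 1445897_s_at.

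Trim25 differed in the same way. At 1425974_a_at it was at 9.65, 9.39 and 9.30 in KO and 10.14, 10.11, 9.75 and 10.04 in WT, a log2 change of -0.56 (limma adjusted p = 0.0225). At 1426415_a_at the log2 change was -0.34 (limma adjusted p = 0.0888), and at the brightest, 1419879_s_at, it was 0.14. A suffix of _s_at or _x_at marks probes that can match other transcripts, and which transcripts each of these probe sets reads was not analysed here. Eif2ak2 at 1440866_at, which is under the filter, changed by -0.48 on the log2 scale (limma adjusted p = 0.0289), against -0.08 and 0.055 at its other probe sets. The second Stat2 probe set, dimmer still at 4.11 in KO and 4.04 in WT, had a log2 change of 0.07. In all, 10 of the 14 genes had probe sets of opposite sign. When a gene's probe sets were averaged, 3 of 30 tested members passed: Irf9, Bst2 and Ifi35 (-0.27, limma adjusted p = 0.0429), while Stat2 fell under the filter and Trim25 was at -0.25.

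**Figure D3:**
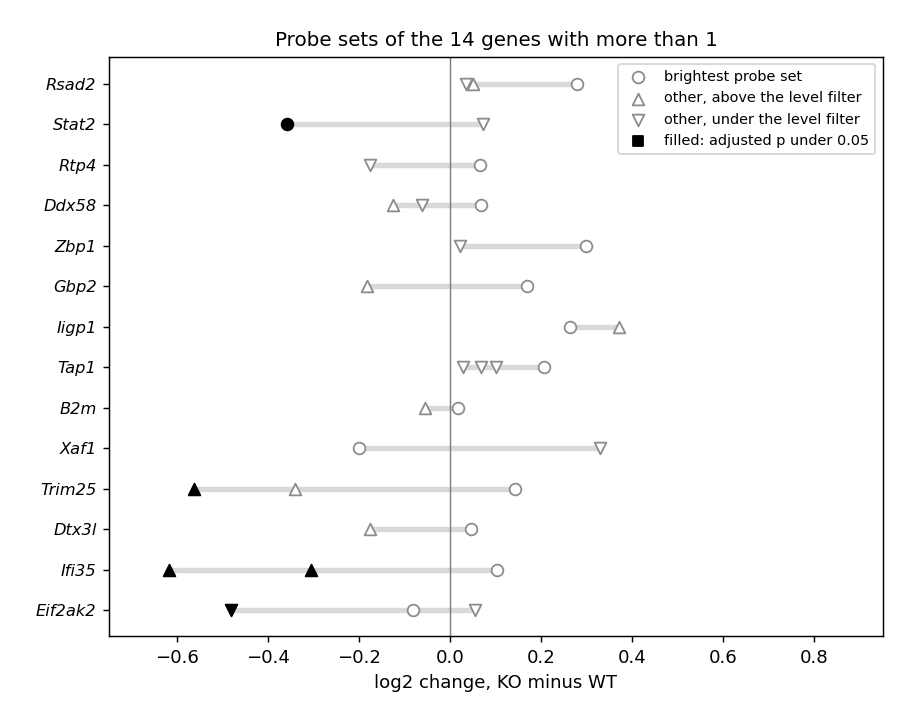
Log2 change, KO minus WT (x axis), of every probe set of the 14 genes with more than 1. Circles are the brightest probe set of a gene, upward triangles other probe sets above the level filter and downward triangles those under it, and filled symbols have limma adjusted p under 0.05 over all probe sets. Ifi35 and Trim25 have filled triangles at -0.62, -0.31 and -0.56 and open circles right of 0.

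Members with and without an ISRE match were also counted apart. Of 14 tested members with an ISRE match 2 were called, both lower, against 12.9% of all 381 tested genes with a match called in either direction. Of 10 without one 1 was called, also lower, against 16% of 10280 genes called in either direction. The median log2 change was 0.04 with a match and 0.05 without. Ifit1, with 2 matches in the printed letters, and Rsad2, with 1, had changes of -0.25 and 0.28, and Bst2, with 2, one of -0.54.

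The level of each role group was also followed on each array, as the median over its genes of the difference from each gene's 7-array mean. Over all 32 tested members it was 0.05, 0.05 and -0.04 on KO replicates 1 to 3 and 0.06, -0.03, -0.085 and 0.07 on WT replicates 1 to 4, so the groups overlapped. Signalling and transcription factors were at -0.17, -0.15 and -0.18 in KO and 0.18, -0.02, 0.11 and 0.20 in WT. These were the factors named above, so this repeats their lower KO levels. The GTPases were at 0.07, 0.12 and -0.01 in KO and 0.05, -0.23, -0.19 and 0.09 in WT, with WT replicates 2 and 3 lowest. Antigen presentation was at 0.04, 0.06 and -0.10 in KO and 0.09, -0.01, -0.05 and 0.17 in WT.

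**Figure D4:**
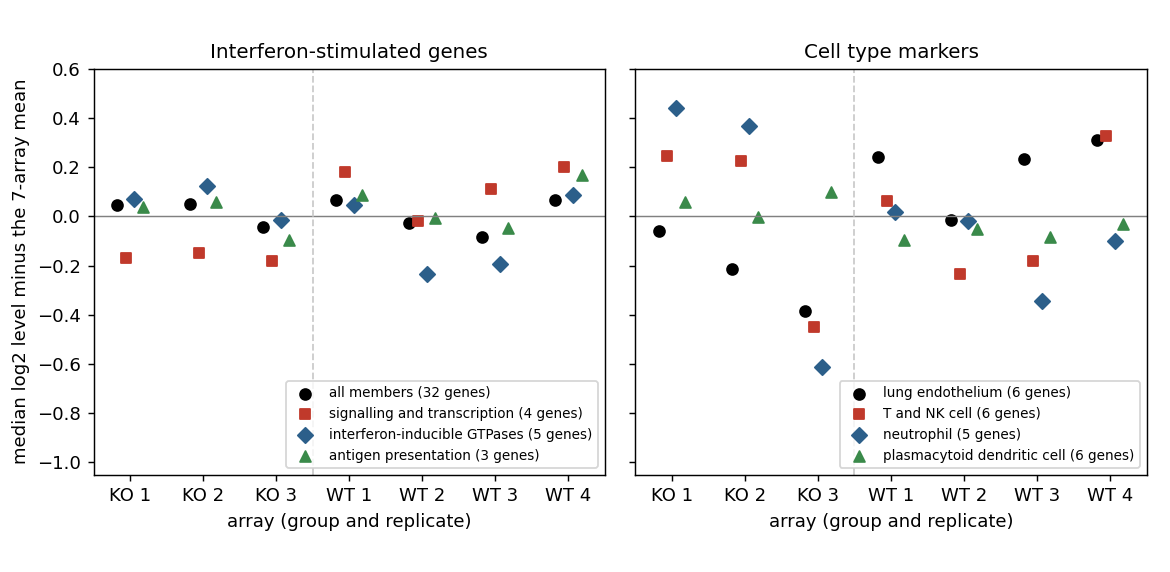
Median over the genes of a list of the log2 level minus each gene's 7-array mean (y axis), for each array (x axis, KO left and WT right of the dashed line). The left panel has interferon-stimulated genes and the right panel markers of 4 cell types. Signalling factors lie lower on the KO arrays than on the WT arrays, while T and NK cell and neutrophil markers are lowest on KO replicate 3.

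Markers of lung cell types were read on the same arrays, and none of the tested ones was at 0. Of 6 endothelial markers 2 fell in KO: Pecam1, an adhesion molecule, and Tie1, a receptor kinase of vessel lining (log2 changes -1.22 and -0.83, limma adjusted p = 0.00679 and 0.0113). The brightest endothelial markers, Cldn5 and Tek, a tight-junction claudin and the angiopoietin receptor, were at -0.42 and -0.21 and did not pass. All 6 changes were negative, and 10.0% of all tested genes fell. The linear signals of a list were also summed, a description in which bright probe sets weigh most, so the sum without the brightest gene is given too. For the 6 it was 7813 to 9890 in KO and 9736 to 12257 in WT, and without Cldn5 5428 to 6648 and 6716 to 8540. Irf9, Stat2 and Bst2 were lower on the KO arrays, as Pecam1 and Tie1 were, and the part of endothelial RNA in that was not tested.

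Plasmacytoid dendritic cells make much type I interferon and carry Bst2 at their surface. Of 6 tested markers none passed, with changes from -0.03 to 0.24. Tcf4 and Cox6a2, the brightest, were at 0.19 and 0.24, and Siglech, the defining receptor, was dim at 6.27 to 6.60. The summed signal was 5099 to 5313 in KO and 4433 to 4669 in WT, but Tcf4, which other lung cells also make, gave 65.6% to 73.9% of it. Without Tcf4 the sums overlapped, at 1330 to 1797 and 1193 to 1608. The part of these cells in the Bst2 values was not tested.

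Of 5 monocyte and interstitial macrophage markers 1 rose, Csf1r, a growth factor receptor (log2 change 0.33, limma adjusted p = 0.00944), with 0.26 and 0.05 at its other probe sets. The others did not pass: C1qb was at 0.29, Cx3cr1 at 0.215, Ccr2 at -0.25 and C1qa at -0.36. Their sum was 6205 to 6489 in KO and 5059 to 5366 in WT. Csf1r gave 78% to 83% of it, and without Csf1r the groups overlapped, at 1057 to 1196 and 1001 to 1174.

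The remaining marker lists held no gene that passed. T and NK cell markers, 6 tested and led by Gzma and Cd3e, summed to 774 to 1509 in KO and 880 to 1387 in WT. Their median deviation was -0.23 and -0.18 on WT replicates 2 and 3, where the GTPases were also low. On KO replicate 3 it was lowest, at -0.45, and the GTPases were at -0.01. On WT replicates 2 and 3 B and plasma cell markers were at -0.36 and -0.07, and neutrophil markers at -0.02 and -0.34. T and NK cells are a known source of interferon-gamma, which induces those GTPases, and the part of T and NK cell RNA in the GTPase values was not tested. Neutrophil markers, 5 tested and led by S100a8 and S100a9, summed to 2428 to 7108 in KO and 3180 to 7118 in WT. For B and plasma cells, 6 tested and led by Xbp1 and Jchain, the sums were 7489 to 8420 and 7684 to 8897. In these 3 lists the groups overlapped, with and without the brightest gene. Alveolar macrophage markers, 6 tested and led by Chil3 and Car4, summed to 10687 to 13941 in KO and 13227 to 15954 in WT, and without Chil3 to 3253 to 4063 and 4324 to 5070. Car4, at 11.10 to 11.31 in KO and 11.38 to 11.62 in WT, weighed most in the sums without Chil3. All 6 alveolar macrophage changes were negative, from -0.57 to -0.21. Their median was -0.33, beside -0.003 over all tested genes. Epithelial markers, 8 tested and led by Scgb1a1 and Ager, summed to 99582 to 101730 in KO and 101833 to 106755 in WT. Without Scgb1a1 the sums were 76724 to 77545 in KO and 79452 to 83745 in WT. The groups of single epithelial markers overlapped for all but Sftpc and Sftpb, the surfactant proteins C and B, which were lower in KO at -0.12 and -0.74 without passing. The part of each of these cell types in the member values was not tested.

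Other genes of the pathway were read from 6 lists of 109 names, of which 92 were measured and 84 tested. Of the 84, 4 rose, 7 fell and 73 did not pass, or 13.1% called against 15.6% of all tested genes. The split moved with the scaling: 6 higher and 5 lower after a further quantile normalization, 1 and 8 with each array centred on its median, and 3 and 5 after cyclic loess. Receptors and kinases held 0 of 9: Ifnar2, a chain of the type I receptor, was at 0.07 and the kinase Jak2 at 0.05. Negative regulators held 0 of 7, with Socs3, which blocks Jak kinases, at 0.56 (10.93, 10.96 and 10.46 in KO, 10.01, 10.20, 10.77 and 9.90 in WT, limma adjusted p = 0.101) and the phosphatase Ptpn2 at 0.18. WT replicate 3 was within the KO range of Socs3, which passed without that array (limma adjusted p = 0.0287).

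Upstream of interferon, 1 of 15 sensors and adaptors rose. Dhx58, the RIG-I relative LGP2, was at 6.55, 6.66 and 6.29 in KO and 6.26, 6.01, 5.89 and 6.19 in WT, a log2 change of 0.41 (limma adjusted p = 0.0461), a call that each of the 3 other scalings ended (limma adjusted p = 0.0546 to 0.0751). It is the relative of Ifih1 and Ddx58, whose changes of 0.21 and 0.07 did not pass. The adaptor Myd88 was at -0.185 and the kinase Tbk1 at 0.22, and neither passed (limma adjusted p = 0.0508 for Tbk1). Of the ligands 1 was above the level filter, Ifna1, which rose by a log2 change of 0.24 (limma adjusted p = 0.0367) at an _x_at probe set, so related interferon-alpha genes may be read with it. That call ended with median centring and with cyclic loess (limma adjusted p = 0.0519 and 0.064).

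Further interferon-stimulated genes held 3 lower and 2 higher of 39 tested, so changed genes lay in both directions. Lgals9, or galectin-9, was at 7.48, 6.81 and 6.64 in KO and 7.77, 7.86, 7.73 and 8.03 in WT, a log2 change of -0.87 (limma adjusted p = 0.0191). Irgm2, a GTPase close to the member Irgm1, had a log2 change of -0.55 (limma adjusted p = 0.0429), where Irgm1 was at -0.08. Ifi27 was at -0.22 (limma adjusted p = 0.0408), with -0.72 at its other probe set. Phf11d and Sp110, a nuclear body protein, rose by 0.33 and 0.26 (limma adjusted p = 0.00914 and 0.0343), and Sp110 lost its call with median centring and with cyclic loess (limma adjusted p = 0.0523 for both). Further quantile normalization and cyclic loess ended the calls of Irgm2 (0.0609 and 0.0556 by limma, adjusted) and Ifi27 (0.167 and 0.101). The brightest of the list, Ifitm3, which blocks virus entry, and Ly6e did not pass, at -0.04 and 0.01.

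MHC class I and immunoproteasome genes held 4 lower of 13 tested and 0 higher, where 10.0% of all tested genes fell and 5.56% rose, and had a median log2 change of -0.24 beside -0.003 over all tested genes. H2-D1, a class I heavy chain, was at 12.02, 11.94 and 11.60 in KO and 12.28, 12.35, 12.18 and 12.45 in WT, a log2 change of -0.46 (limma adjusted p = 0.0282). This is an _x_at probe set, so other transcripts may be read with it. Its next brightest probe sets were at -0.40, -0.34 and -0.31, and the dimmer ones ranged from -0.02 to 0.16. Tapbpl, a peptide editor, was at -0.33 (limma adjusted p = 0.0276), with 0.06 at its other probe set. Calr and Pdia3, chaperones of the endoplasmic reticulum that also load class I, were at -0.48 and -0.91 (limma adjusted p = 0.0107 and 0.00802), and the other Pdia3 probe set at 0.03. H2-K1, the other classical heavy chain, did not pass at -0.075, nor did the members B2m, Tap1 and Tap2 that serve the same step. Of these 11 calls across the lists, Phf11d, Calr and Pdia3 passed with limma whichever array was left out. The other 8 each lost the call without at least 1 array, with limma adjusted p up to 0.129 for Irgm2, 0.112 for Dhx58, 0.102 for Ifi27, 0.0892 for Ifna1, 0.087 for Sp110, 0.0738 for H2-D1, 0.0734 for Tapbpl and 0.0578 for Lgals9. No gene of the 6 lists passed with limma with any of the 3 control differences as covariate. With beta-actin 3′ minus 5′ Pdia3 went to -0.31, Lgals9 to -0.49, Calr to -0.29 and Dhx58 to 0.20. With beta-actin 3′ minus middle H2-D1 went to -0.03, Tapbpl to -0.05, Lgals9 to -0.23, Irgm2 to -0.20 and Dhx58 to 0.68, and with Gapdh Pdia3 went to -0.56.

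**Figure D5:**
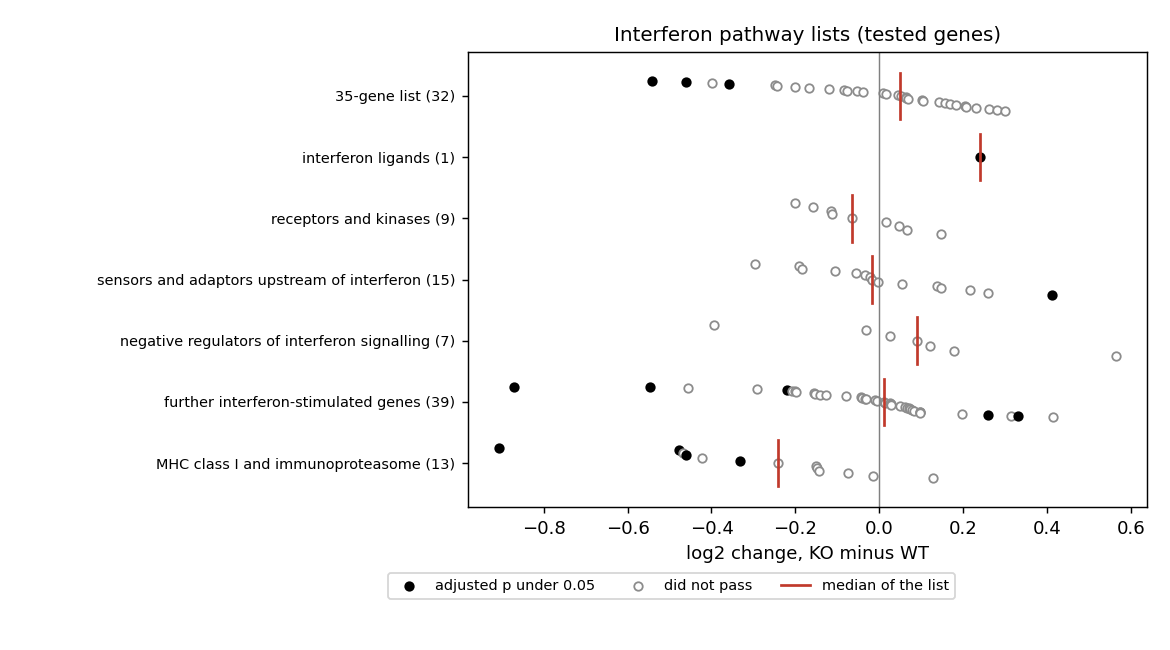
Log2 change, KO minus WT (x axis), of each tested gene of the 35-gene list and of 6 lists of related genes (rows, number tested in brackets). Filled points have limma adjusted p under 0.05, open points did not pass and red lines are list medians. The 35-gene list has 3 filled points, all left of 0, and the MHC class I list has 4, with its median at -0.24.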

How the data were processed

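Whole left lungs of 3 KO and 4 WT mice were measured, 1 array each. Values in the deposited file are log2 levels, to 2 decimals, of 45101 probe sets. The submitters' processing notes list Affymetrix Expression Console, RMA and MAS5 but no roles, so the method behind the values is unstated and the log base was read from their range. Apart from controls there were 45037 probe sets: 34945 have a single gene in GEO's platform annotation, 932 have several and 9160 have none. RefSeq (GRCm38.p6) gave current symbols, by gene identifier, for 34741.

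Each gene was read from its brightest probe set. Genes at or above the 40th percentile of probe set means (log2 5.47) were tested, leaving 13285 of 18193. The groups were compared with limma 3.58.1 in R 4.3.3 (lmFit, eBayes, genotype alone), adjusting by Benjamini-Hochberg over all tested genes at a threshold of 0.05. Control differences were compared by exact permutation. The number of arrays limits the precision. In a simulation of 13285 genes on as many arrays, 41 of 64 planted changes of log2 0.5 were recovered, 72 of 74 of log2 1 and 61 of 62 of log2 1.5, and 14 of 188 calls were false. With nothing planted there were 0 calls. The simulation drew each gene independently and held no difference in labelled-RNA completeness between the groups. Its recovery and false calls therefore need not hold for these arrays. Alternatives covered the scaling, filter, probe sets, variance model, control covariates, replicate number, mouse numbers and single arrays.

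The members, related lists and marker lists were chosen with earlier results of these data known. Every member is named, as are the related and marker genes that passed, the 2 brightest of each such list, and Gata5. Other genes, probe sets and the printed promoters were chosen after their values were seen. Plots used matplotlib 3.10.9 (Python 3.11.15).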

Additional observations from a re-analysis of the deposited data

Results flagged for a closer look

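Of 53 genes examined among the 4 WT arrays, 2 had an array far from the other 3 for the spread of the group, and chance gives this in about 1 of 20 groups. Ifih1 on WT replicate 3 was at 9.80, against 9.90 to 9.91 on the other WT arrays. Oas3 on WT replicate 4 was at 6.46, against 6.47 on each of the other 3, a difference of the last digit deposited.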

How the results depend on the processing

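The count of 3 members called was 4 after a further quantile normalization, median centring, cyclic loess, or eBayes with trend and robust, 2 with a filter at the 60th percentile, and 2 to 4 when single arrays were left out. It was 0 with limma with the beta-actin 3′ minus 5′, beta-actin 3′ minus middle or Gapdh difference as covariate (3, 3 and 2 members at unadjusted p under 0.05), 0 among the 5 lowest mouse numbers (6 members), and 1 with the replicate block. The 5 lowest numbers are all KO mice with WT replicates 1 and 2, and the block has no KO mouse beside WT replicate 4. Both therefore rest on fewer arrays. Same-numbered KO and WT mice did not deviate together (r = 0.003, -0.042 and 0.035 for numbers 1 to 3), and for unlike numbers r ran from -0.290 to 0.265. The deviations were taken from each group's own mean, so these values show no pairing but cannot exclude one. With the block 371 of all genes were called, and Irf9, Stat2 and Bst2 had limma adjusted p of 0.054, 0.112 and 0.046.

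The 11 related genes called became 0 with each of the 3 covariates, 0 with the replicate block, 0 among the 5 lowest mouse numbers and 3 to 7 when single arrays were left out. The members' median of 0.05 moved to -0.04 with the mean of all probe sets and to 0.12 with the beta-actin 3′ minus middle covariate, and was 0.01 to 0.07 when single arrays were left out.

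The sign of a log2 change turned for genes that did not pass with the processing described above. After a further quantile normalization these were Ifit2 (0.040), Ifit3 (0.0042) and Irgm1 (0.0061), after median centring Oas3 (-0.02), B2m (-0.0125) and Ly6e (-0.015), and after cyclic loess Oas3 (-0.027), Ifit2 (0.017) and Ifitm3 (0.0195). The mean of all probe sets turned Ddx58 (-0.04), Trim25 (-0.25), Dtx3l (-0.066), Rtp4 (-0.056), Xaf1 (0.063), Ifi35 (-0.27), Gbp2 (-0.0083), B2m (-0.02), Ifnar2 (-0.10) and Jak2 (-0.095). With that mean Ifi35 passed as lower in KO (limma adjusted p = 0.0429). The beta-actin 3′ minus 5′ covariate turned Mx1 (-0.12), Mx2 (0.031), Rtp4 (-0.11), B2m (-0.080), Jak2 (-0.0625) and Myd88 (0.029). The beta-actin 3′ minus middle covariate turned Irf7 (-0.023), Oas1a (-0.059), Ifit1 (0.041), Ifit2 (0.45), Parp9 (0.0895), Xaf1 (0.027), Irgm1 (0.25), Ifitm3 (0.054) and H2-K1 (0.18). The Gapdh covariate turned Oas2 (0.16), Mx2 (0.057), Rtp4 (-0.024), B2m (-0.11) and Jak2 (-0.051), the replicate block Ifit2 (0.0067), and the 5 lowest mouse numbers Oas1a (-0.077) and Ifit2 (0.075). When single arrays were left out, Oas3 ranged from -0.0425 to 0.0575, Ly6e from -0.0475 to 0.10, B2m from -0.04 to 0.07, Ifit2 from -0.12 to 0.095, Irgm1 from -0.14 to 0.0125 and Oas1a from -0.03 to 0.15. The cause of these turns was not tested.

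Signals near the level filter limit Stat2, Zbp1 and Mx1 most. The smallest changes have no settled sign, and 3 against 4 arrays with control differences that do not overlap mean that genotype and array quality cannot be told apart.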
